A study of Arabidopsis thaliana with 6 samples.

Results

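Plant U-box (PUB) ubiquitin ligase genes were followed in Arabidopsis thaliana shoots (labelled aerial part, 30 days old), in 3 arrays of epiF3 plants and 3 arrays of Col-0 wild type. The family was taken up with earlier results of these data known. Members were chosen by name, as the probe sets that name 1 gene whose symbol is PUB and a number, and where a gene had several, by the highest mean of the 6 arrays. This gave 9 genes among 22746 probe sets tested, namely PUB15, PUB19, PUB22, PUB23, PUB24, PUB25, PUB26, PUB43 and PUB49. Each had 1 probe set, so brightness decided nothing, and all 9 were tested with no filter on low values. A RefSeq gene table holds 22 genes with such symbols, and the other 13 are not analysed here.

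The epiF3 samples carry the ecotype label Col-0 as well, and their description calls them albino plants with an msh1 mutation, a name that the titles do not use. Both groups were grown in potting mix under a 12-h day at 22 degrees, and RNA was extracted plant by plant and hybridised, 1 sample per array. How epiF3 was derived, how many lines it comprises and whether plants of the groups were handled together are not stated in the labels.

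U-box proteins are E3 ligases: they bind a ubiquitin-charged E2 conjugating enzyme and a substrate, and so choose which protein receives ubiquitin, which often sends it to the proteasome. The U-box folds like a RING finger but holds no zinc, and most plant members also carry armadillo repeats that bind substrates. In Arabidopsis leaves several of them restrain responses to microbial patterns and drought, and some act in the response to cold. The transcripts of some rise within the first hour of such stimuli.

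In these plants the 4 genes PUB22, PUB23, PUB24 and PUB25 differed more among the wild-type arrays than 96% of all probe sets did, and were close together among the epiF3 arrays in 3 of these 4 cases. Their signals were highest in wild type replicate 2, next in wild type replicate 1, and lower in wild type replicate 3 and in all 3 epiF3 arrays. None of the 9 genes passed the threshold between the groups. PUB15, PUB19, PUB26, PUB43 and PUB49 had smaller ranges among the wild-type arrays and smaller differences between the groups.

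Some properties of the arrays bear on these values. Across all probe sets, wild type replicate 3 had Pearson correlations of 0.9869 with epiF3 replicate 1 and 0.984 with epiF3 replicate 2, of 0.9835 and 0.9809 with wild type replicates 1 and 2, and of 0.9704 with epiF3 replicate 3. Wild type replicate 1 had 0.9837 with epiF3 replicate 1, about as much as with wild type replicate 3, and 0.9888 with wild type replicate 2. Each wild-type array correlated least with epiF3 replicate 3 (0.9613 to 0.9704). Within epiF3, replicate 3 had 0.9803 and 0.9822 with replicates 1 and 2, which had 0.9937 with each other. Its array weight was the lowest, at 0.305, and that of wild type replicate 3 the next, at 0.712. MSH1 is not analysed here for want of a named probe set. The array labels, that of wild type replicate 3 included, were therefore not checked by the mutated gene. epiF3 replicate 3 had the highest mean of the 18 hybridization control probe sets, added bacterial and phage transcripts, at a log2 signal of 10.5, against 8.19 and 8.36 on the other epiF3 arrays and 7.11 to 8.21 on the wild-type arrays. Of 13 listed genes of green tissue 3 were measured, with log2 signals of 11.5 to 12.8 in epiF3 and 11.3 to 12.9 in wild type. Of 6 listed root genes 2 were measured (2.30 to 4.43 in epiF3 and 2.19 to 4.51 in wild type), and the anther gene AMS lay between 2.16 and 2.35 on all arrays. The guard cell gene FMA was at 4.98, 5.09 and 4.13 in epiF3 replicates 1 to 3 and at 4.74 to 5.07 in wild type. In RNA from whole aerial parts, fewer cells of a type and less RNA per cell cannot be told apart.

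PUB22, PUB23 and PUB24 are closely related ligases that together dampen the response to microbial patterns, and PUB22 and PUB23 also act in the response to drought. None of the 9 probe sets carries the suffix that marks possible cross-hybridisation. The log2 signal of PUB22 (locus AT3G52450) was 3.11, 3.31 and 3.37 in epiF3 replicates 1 to 3, and 4.13, 4.34 and 2.65 in wild type replicates 1 to 3. Thus wild type replicates 1 and 2 were above every epiF3 array and wild type replicate 3 was below every one, so the groups overlapped. Its mean over 3 arrays was 3.27 ± 0.14 (SD) for epiF3 and 3.71 ± 0.92 (SD) for wild type. The difference, -0.44 ± 0.40 (standard error), had an adjusted p of 0.716 in limma, with Benjamini-Hochberg adjustment over all probe sets.

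For PUB23 (AT2G35930) the log2 signals were 3.36, 3.54 and 3.55 in epiF3 replicates 1 to 3, and 4.22, 5.15 and 3.36 in wild type replicates 1 to 3. The 6 arrays ranked as for PUB22, and wild type replicate 3 was within 0.01 of the lowest epiF3 array. Means of 3.49 ± 0.11 (SD) for epiF3 and 4.24 ± 0.89 (SD) for wild type, each over 3 arrays, differed by -0.76 ± 0.39 (standard error; adjusted p = 0.547 in limma).

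PUB24 (AT3G11840) had log2 signals of 3.09, 3.34 and 3.30 in epiF3 replicates 1 to 3, and of 4.15, 4.87 and 3.37 in wild type replicates 1 to 3. Here all epiF3 arrays were below all wild-type arrays, though wild type replicate 3 exceeded the highest epiF3 array by only 0.04. Means were 3.24 ± 0.13 (SD) for epiF3 and 4.13 ± 0.75 (SD) for wild type, each over 3 arrays. The change of -0.89 ± 0.33 (standard error) had a 95% interval of -1.66 to -0.12 and an adjusted p of 0.374 in limma.

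PUB25 and PUB26 are a related pair that mark the immune kinase BIK1 for degradation and also act on the cold-response regulator MYB15. PUB25 (AT3G19380) had log2 signals of 3.23, 3.48 and 2.82 in epiF3 replicates 1 to 3, and of 4.22, 4.64 and 3.48 in wild type replicates 1 to 3. Wild type replicate 3 lay just below epiF3 replicate 2, and the other wild-type arrays were above every epiF3 array. Means were 3.18 ± 0.33 (SD) for epiF3 and 4.11 ± 0.59 (SD) for wild type, each over 3 arrays. Its change was the most negative of the 9, at -0.93 ± 0.30 (standard error), with a 95% interval of -1.62 to -0.23 and an adjusted p of 0.286 in limma.

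PUB26 (AT1G49780), the other gene of that pair, had log2 signals of 4.79, 5.09 and 5.51 in epiF3 replicates 1 to 3, and of 5.60, 5.51 and 4.91 in wild type replicates 1 to 3. Wild type replicate 3 was again the lowest of its group, by 0.69 below replicate 1 and 0.60 below replicate 2. epiF3 replicate 3, however, was as high as wild type replicate 2, and the group difference was -0.21 with a standard error of 0.24 (95% interval -0.77 to 0.35, adjusted p = 0.778 in limma). That change depended on single arrays: leaving out epiF3 replicate 1 gave -0.04 and leaving out epiF3 replicate 3 gave -0.40. The fits lacking wild type replicates 1, 2 and 3 gave -0.08, -0.13 and -0.42, and array weights gave -0.41. Whether the pair differs in its change was not tested.

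**Figure D1:**
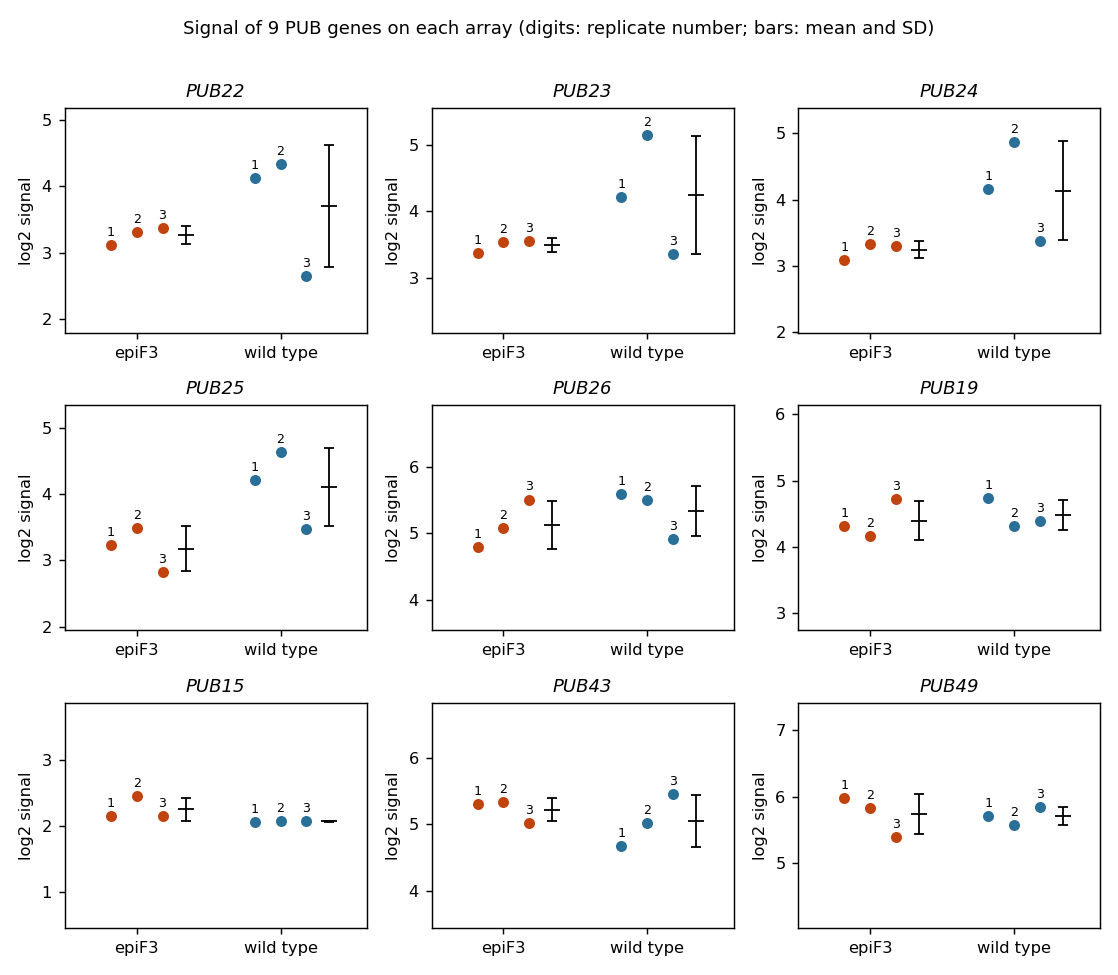
Log2 signal (vertical axis, 3.4 units high in every panel) of the 9 PUB genes on each epiF3 array (orange) and wild type array (blue); digits are replicate numbers, and black bars give the mean and SD of 3 arrays. For PUB22 to PUB25 wild type replicates 1 and 2 sit above all epiF3 arrays, as for 12.8% of all probe sets, while wild type replicate 3 sits at 2.65 to 3.48.

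PUB19 (AT1G60190) encodes a ligase that restrains abscisic acid and drought responses. Its log2 signals were 4.31, 4.16 and 4.72 in epiF3 and 4.73, 4.31 and 4.39 in wild type, with no array standing apart. The difference was -0.08 with a standard error of 0.19, and the 95% interval of -0.51 to 0.35 does not show that the groups were alike.

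PUB43 (AT1G76390) encodes a relative of the senescence-associated ligase SAUL1. Unlike PUB22 to PUB26 it was highest in wild type replicate 3. Log2 signals were 5.30, 5.34 and 5.03 in epiF3 replicates 1 to 3, and 4.67, 5.03 and 5.46 in wild type replicates 1 to 3. All 3 epiF3 arrays lay between wild type replicates 2 and 3. Its difference of 0.17 had a standard error of 0.21 and a 95% interval of -0.31 to 0.66.

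PUB49 (AT5G67530) joins the U-box to a cyclophilin-type prolyl isomerase domain. Signals lay between 5.40 and 5.99 in epiF3 and between 5.57 and 5.84 in wild type, with a difference of 0.03 and a standard error of 0.18 (95% interval -0.38 to 0.44). PUB15 (AT5G42340) was dim, with log2 signals of 2.15, 2.46 and 2.15 in epiF3 and 2.06, 2.07 and 2.08 in wild type. It fell in the lowest 25% of probe sets on 5 of 6 arrays. Its arrays did not overlap between the groups, but at this low signal the difference of 0.18 (standard error 0.13, adjusted p = 0.664 in limma) has no firm size.

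Between groups, 0 of the 9 genes passed an adjusted p of 0.05 in limma, where 0.598% of all probe sets did (0.268% higher and 0.33% lower in epiF3). At an unadjusted p under 0.05, 2 members were lower, PUB24 and PUB25, and none was higher, against 5.51% and 5.37% of all probe sets. Of the 9 changes 6 were negative, as were 44.3% of all probe sets, with a median of -0.21 over the members and of 0.03 over all probe sets. Outside the dimmest 40% of probe sets by mean of 6 arrays, a filter that leaves out PUB15, the background leaned the other way. There 7403 of 13647 changes were negative, with a median of -0.02. The arrays of the groups did not overlap for PUB15 and PUB24, and did not for 16.9% of all probe sets.

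PUB22 to PUB25 varied among the wild-type arrays more than in epiF3. The highest and lowest wild-type arrays differed by 1.79 log2 units for PUB23, 1.69 for PUB22, 1.49 for PUB24 and 1.16 for PUB25, or 3.45-fold, 3.23-fold, 2.81-fold and 2.23-fold. So 4 of 9 members had a wild-type range of at least 1 log2 unit, a 2-fold difference, where 5.02% of all probe sets did. Outside the dimmest 40%, 1037 of 13647 probe sets did. The family was chosen with earlier results of these data known, and PUB22, PUB23 and PUB24 are close relatives, so the count is a description. Just outside the limit of 1 log2 unit lay PUB43 with a range of 0.79 and PUB26 with one of 0.69. Without wild type replicates 1, 2 and 3 the members at that limit numbered 4, 1 and 0. The wide ranges thus rested on replicate 3 and largely on replicate 2, though fewer arrays can only narrow a range. The label of replicate 3, like those of the other arrays, was not checked. In epiF3 no member reached 1 log2 unit (4.83% of all probe sets did), and ranges ran from 0.19 for PUB23 to 0.72 for PUB26.

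Placed among all probe sets, the wild-type SD of PUB22 was above that of 98.6%, PUB23 above 98.5%, PUB24 above 97.8% and PUB25 above 96.2%. The epiF3 SDs of PUB22, PUB23 and PUB24 were above those of only 34.8%, 23.4% and 32.6%, and that of PUB25 above 81.0%. On the epiF3 arrays PUB22 to PUB25 read 2.82 to 3.55, below the array medians of 4.08 to 4.28. The part of low signal in these SDs was not tested. The median SD over the 9 genes was 0.18 in epiF3 and 0.40 in wild type, against 0.18 in epiF3 and 0.15 in wild type over all probe sets. Outside the dimmest 40% of probe sets these medians were 0.18 in epiF3 and 0.20 in wild type. These values describe 6 arrays, and whether the spread differs between the groups was not tested.

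The lower position of wild type replicate 3 was shared by 5 members. For PUB22, PUB23, PUB24, PUB25 and PUB26 both other wild-type arrays were at least 0.5 log2 units above it, which held for 3.6% of all probe sets. Outside the dimmest 40% it held for 718 of 13647 probe sets. Wild type replicates 1 and 2 were both above all epiF3 arrays for 4 of the 9 members, PUB22 to PUB25. This held for 12.8% of all probe sets, and for 2414 of 13647 outside the dimmest 40%. The mean of the 3 epiF3 arrays was above wild type replicate 3 by 0.61 for PUB22 and by 0.12 for PUB23. It was below that array by 0.13 for PUB24 and by 0.30 for PUB25.

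**Figure D2:**
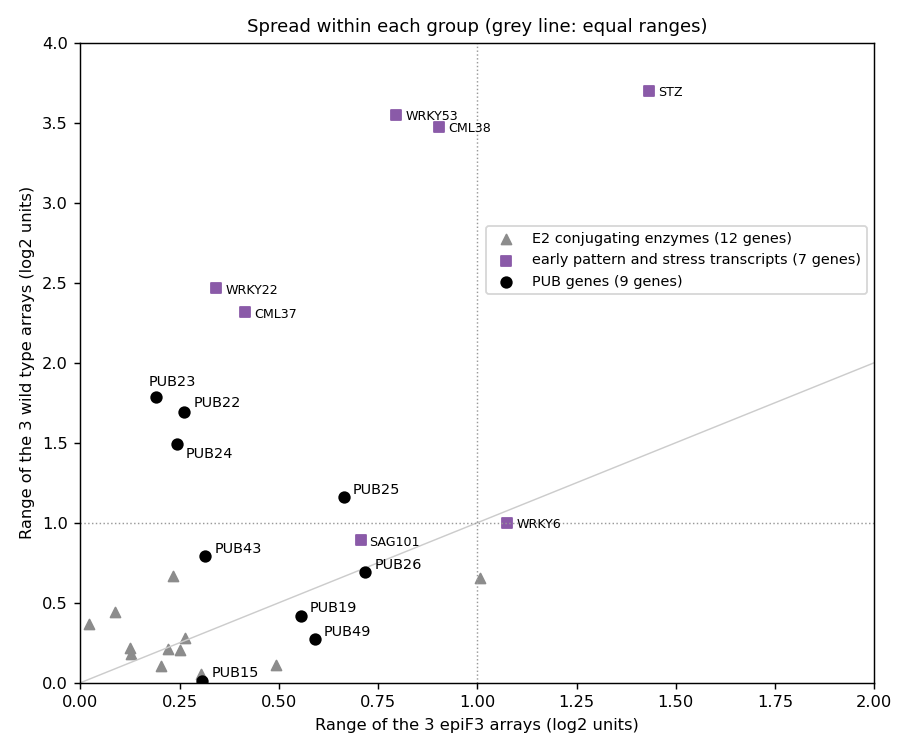
Range of the 3 epiF3 arrays (horizontal axis, log2 units) against range of the 3 wild type arrays (vertical axis, log2 units) for 9 PUB genes, 12 E2 conjugating enzyme genes and 7 early pattern and stress transcripts; dotted lines mark 1 log2 unit. PUB22, PUB23 and PUB24 lie far above the line of equal ranges, with wild-type ranges of 1.49 to 1.79 and epiF3 ranges of 0.19 to 0.26.

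Single wild-type arrays decided how large the group differences were. No array label was checked, that of wild type replicate 3 included. Without wild type replicate 3, PUB22 fell in epiF3, by 0.97 on the log2 scale with a standard error of 0.16 (adjusted p = 0.0381 in limma). In that fit 1.26% of all probe sets were called lower. In the same fit PUB23 had a change of -1.20, PUB24 of -1.27 and PUB25 of -1.25, with adjusted p of 0.0976, 0.0515 and 0.0582. Without wild type replicate 2 the changes were -0.12 for PUB22, -0.30 for PUB23, -0.52 for PUB24 and -0.67 for PUB25, and without wild type replicate 1 that of PUB22 was -0.23. None of these 4 genes was called without any of the other 5 arrays.

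Leaving out epiF3 arrays moved them less. PUB24 ranged from -0.94 to -0.81 and PUB25 from -1.08 to -0.75 with 1 epiF3 array left out. Without epiF3 replicate 3, the array with the high hybridization controls, the changes were -0.50 for PUB22, -0.79 for PUB23, -0.92 for PUB24 and -0.75 for PUB25. The changes of PUB22 to PUB26 were negative in each of the 10 alternative settings that move them (3 scalings, array weights and the 6 fits without 1 array), which share most of their arrays.

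**Figure D3:**
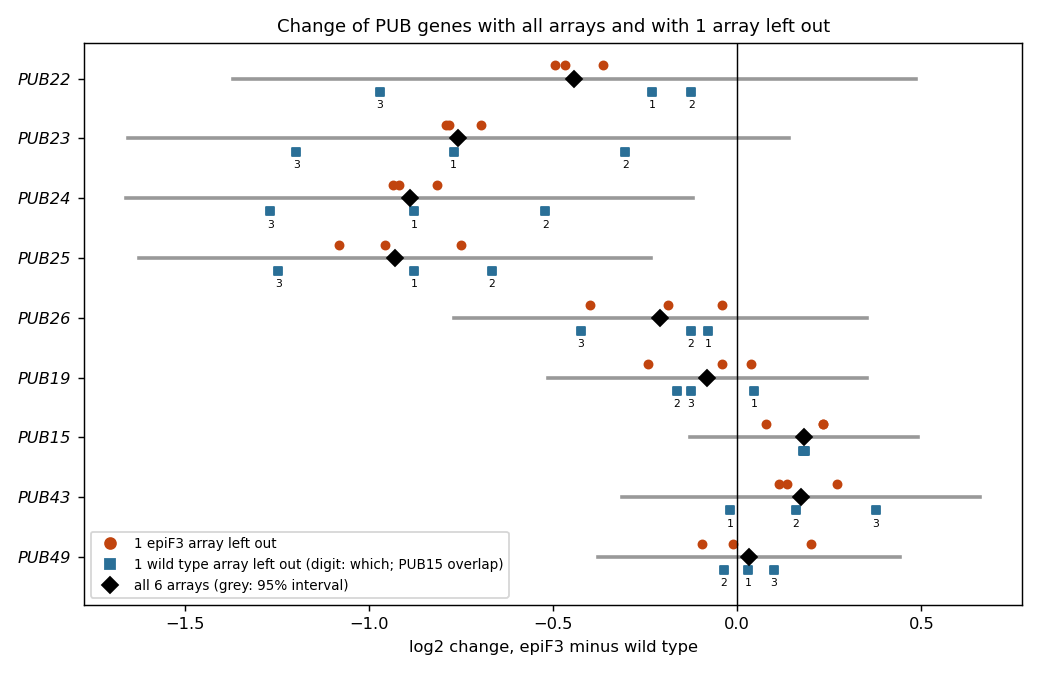
Log2 change, epiF3 minus wild type (horizontal axis), of the 9 PUB genes with all 6 arrays (diamonds, with 95% interval in grey) and with 1 epiF3 array (circles) or 1 wild type array (squares) left out. The change of PUB22 runs from -0.97 without wild type replicate 3 to -0.12 without wild type replicate 2.

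Few other genes of the ubiquitin pathway were measured under a name. E2 enzymes hand ubiquitin to the ligases. Of 12 measured E2 genes, 0 passed the threshold and 0 had an unadjusted p under 0.05; 6 changes were positive and 6 negative, with a median of 0.01. Their wild-type ranges lay between 0.05 and 0.67, so 0 of 12 reached 1 log2 unit, where 5.02% of all probe sets did. In epiF3 1 had a range of at least 1 log2 unit, UBC20 with 1.01. The smallest p among them belonged to UBC37 (-0.31, standard error 0.14), UBC29 (0.23, standard error 0.12) and UBC18 (-0.35, standard error 0.19), each with an adjusted p of at least 0.471 in limma. Arrays of the groups did not overlap for 3 of the 12 E2 genes (UBC37, UBC29 and UBC32), and did not for 16.9% of all probe sets.

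Among 6 other ligases and their parts, 0 passed and 5 changes were above 0 (median 0.15). Their wild-type ranges were 0.17 to 0.72. ATL8, a RING-type ligase, had log2 signals of 5.37, 5.22 and 5.44 in epiF3 and 4.41, 4.93 and 4.41 in wild type. The groups did not overlap for ATL8, nor for ATL4H of the same list, and did not for 16.9% of all probe sets. The change of ATL8 was 0.76 with a standard error of 0.17 (adjusted p = 0.128 in limma). ATL4H (0.21) and SLY1, the F-box protein of gibberellin signalling (0.19), followed by p. The only proteasome subunit measured was RPN12a, a protein that PUB22 and PUB23 are known to ubiquitinate, with a change of -0.13 and a standard error of 0.14. No gene of the list for ubiquitin and E1 activating enzymes was measured under a name.

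BIK1, the kinase that PUB25 and PUB26 act on, was the other measured partner. Its log2 signals were 5.45, 6.09 and 5.81 in epiF3 replicates 1 to 3, and 6.39, 6.46 and 5.47 in wild type replicates 1 to 3. As for PUB22 to PUB26, wild type replicate 3 was the lowest of its group, and the change was -0.32 with a standard error of 0.29 (adjusted p = 0.716 in limma). The fits lacking wild type replicates 1, 2 and 3 gave -0.18, -0.14 and -0.64, and that lacking epiF3 replicate 1 gave -0.15.

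A list of transcripts and parts of the early response to microbial patterns, touch and wounding also varied among the wild-type arrays. Of 69 listed genes 7 were measured: WRKY53, WRKY22 and WRKY6, transcription factors of defence and senescence, the zinc finger repressor gene STZ, the calmodulin-like genes CML37 and CML38, and SAG101, a partner in immune receptor signalling. Of these, 6 had a wild-type range of at least 1 log2 unit (WRKY6 only just, with 1.00), where 5.02% of all probe sets did. An epiF3 range that wide was seen for 2 of the 7 and for 4.83% of all probe sets. None passed the threshold, and all 7 changes were negative with a median of -0.97, where 44.3% of all probe sets had negative changes. The list was chosen with earlier results of these data known.

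WRKY53 had log2 signals of 3.11, 3.90 and 3.87 in epiF3 replicates 1 to 3, and of 7.10, 8.06 and 4.51 in wild type replicates 1 to 3. Wild type replicate 2 was highest and replicate 3 lowest of its group, as for PUB22 to PUB25, and the range reached 3.55. Its change was -2.93 with a standard error of 0.79 (adjusted p = 0.194 in limma), or -3.95 without wild type replicate 3, where it was called (adjusted p = 0.00656). WRKY6 (-0.73) and SAG101 (-0.55) had the next smallest p.

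Genes with the array pattern most like that of PUB22, the member with the widest wild-type SD, were sought among 829 probe sets that name 1 gene and have an SD of at least 0.5 over the 6 arrays. The measure was Pearson's r over 6 arrays, which fall into the same groups for every gene, so r is given as a description. The 5 highest were AT5G24210 (0.996), WRKY22 (0.994), AT4G34150 (0.990), AT5G17350 (0.985) and AT1G23710 (0.977). WRKY22, a transcription factor of pattern-triggered defence, had log2 signals of 3.42, 3.76 and 3.56 in epiF3 and 4.89, 5.12 and 2.65 in wild type, and so also placed wild type replicate 3 below every epiF3 array. By the same measure PUB23 ranked 48th with 0.903, PUB24 74th with 0.873 and PUB25 159th with 0.771. The other members had an SD under 0.5 and were not ranked.

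**Figure D4:**
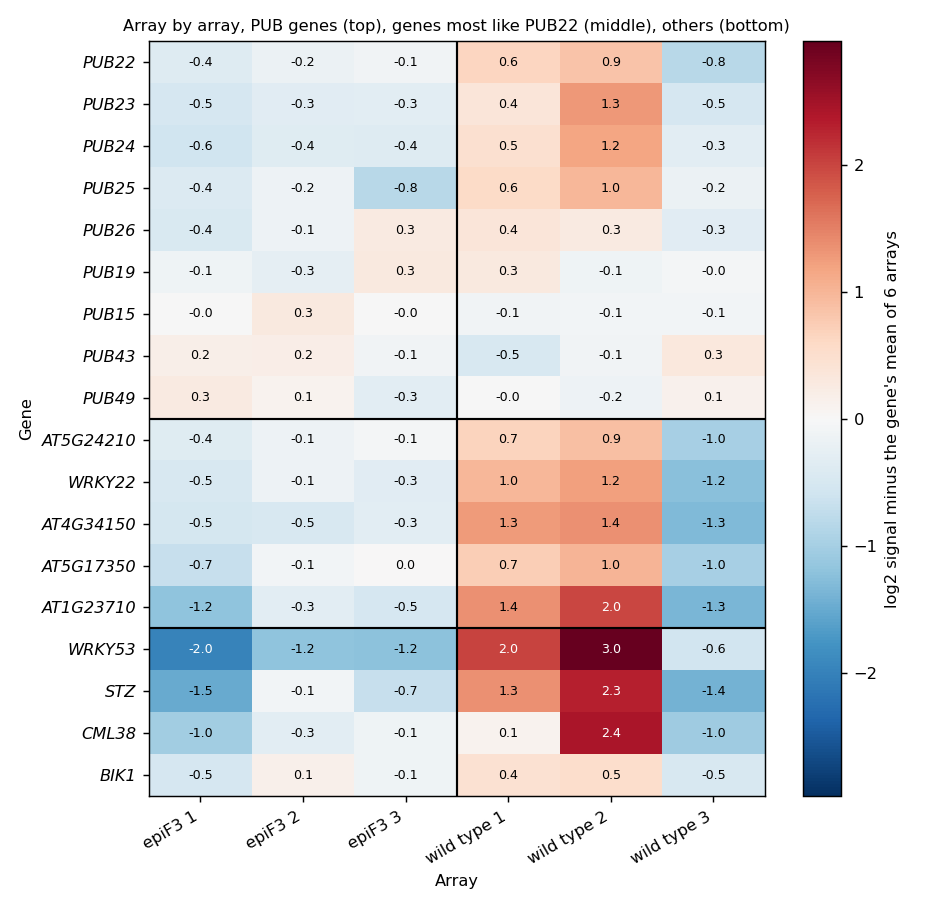
Log2 signal minus each gene's mean of 6 arrays (colour and printed value) for the 9 PUB genes, 5 genes chosen for their likeness to PUB22 and 4 listed genes, of which STZ and CML38 were picked after their values were seen, on each epiF3 and wild type array. PUB22 to PUB26 are positive in wild type replicates 1 and 2 and negative in replicate 3, while PUB15, PUB19, PUB43 and PUB49 do not follow that order.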

How the data were processed

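Values deposited by the authors are on a log2 scale, 1 for each probe set on each array. RMA (robust multi-array averaging) and affy stand in the submitters' processing notes, with no version. The scale was judged from the values, between 1.21 and 12.9. Of 22810 probe sets, 64 array controls were left out. Platform annotation gives 1 gene for 13513 probe sets, of which 13436 matched a RefSeq gene table of TAIR10.1, used for symbols only; 503 name several genes and 8730 are unnamed here. Sequences were not used here.

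Groups came from the titles. R 4.3.3 with limma 3.58.1 served to fit all 22746 probe sets (lmFit, eBayes; two-sided test of epiF3 minus wild type without a block), with Benjamini-Hochberg adjustment and a threshold of 0.05. It was tested on simulated data with independent arrays and the same spread in both groups. That setting does not cover genes such as PUB22, whose spread differed between the groups. Members, gene lists and the rule for named genes were chosen with earlier results of these data known. Values on each array were given for members with a change or a wild-type range of at least 1 log2 unit or an unadjusted p under 0.05, and then, outside that rule, for the others too. From each list the up to 3 smallest p were named where none passed. STZ, CML38 and UBC20 were singled out after their values were seen. Alternatives were 3 scalings, filters on dim and cross-hybridising probe sets, means of a gene's probe sets, moderation, array weights, a replicate block, thresholds and leaving out each array. Titles call the samples biological replicates. The number of arrays limits the precision. Figures were drawn with matplotlib 3.10.9.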

Additional observations from a re-analysis of the deposited data

Results flagged for a closer look

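Hybridization control probe sets lie outside the comparison of plant genes. They averaged a log2 signal of 8.36 on epiF3 replicate 2 and 10.5 on epiF3 replicate 3, both above the highest wild-type array at 8.21. The excess of epiF3 replicate 2 is small beside the spread of the wild-type arrays, which began at 7.11. On epiF3 replicate 3, PUB22, PUB23 and PUB24 stayed with the other epiF3 arrays (ranges of at most 0.26 log2 units), though it was the highest for PUB22 and PUB23. Among the epiF3 arrays it was also the highest for PUB19 and PUB26, and the lowest for PUB25, PUB43 and PUB49. For PUB15 it tied with epiF3 replicate 1. The part of this array in the results was not tested.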

How the results depend on the processing

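The count of called PUB genes stayed at 0 under all alternatives except leave-one-out fits, where it was 0 to 1, with PUB22 called without wild type replicate 3. With the replicate number as a block it was also 0. Arrays with the same number had deviations from their group means that correlated at -0.08, -0.04 and -0.05, so the numbers were not taken to pair them. Over all probe sets the block gave 26 higher and 48 lower calls, against 61 and 75. Array weights gave 208 and 241, an adjusted p under 0.01 gave 9 and 24, and the counts lay between 11 and 115 higher and 22 and 287 lower when 1 array was dropped. The 4 genes with a wild-type range of at least 1 log2 unit kept that count under the 3 scalings and the filters. They numbered 4, 1 and 0 without wild type replicates 1, 2 and 3, where fewer arrays can only narrow a range. Of 350 values of 25 named genes under alternatives, 6 turned sign, all with 1 array dropped and all for PUB19 (range -0.242 to 0.0451), PUB43 (-0.0195 to 0.376) and PUB49 (-0.0949 to 0.201), 3 genes with changes near 0. Another 6 became calls, all without wild type replicate 3, and the cause was not tested. They were PUB22, WRKY53, AT5G24210, WRKY22, AT4G34150 and AT1G23710. All but PUB22 and WRKY53 were named for their likeness to PUB22 over these same arrays, so they follow it by selection. Median centring gave a median change of all probe sets of 0.10, against 0.03 as deposited. The filter on dim probe sets removed PUB15.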
